A study of Mus musculus with 12 samples.

Results

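Fatty acids entering the cell must be joined to coenzyme A before they can be burned, stored or built into membranes and surfactant. Here 10 genes with roles in that step were followed across mouse lung tumors, namely *Acsbg1*, *Acsl1*, *Acsl3*, *Acsl4*, *Acsl5*, *Acsl6*, *Slc27a1*, *Slc27a3*, *Slc27a4* and *Cd36*. They were taken by symbol from the deposited count table and are 10 of its 39017 genes. *Acsbg1* was selected on its measured difference between doxycycline-fed and control tumors, so its values in that contrast are a description and carry no test. The other 9 genes are further long-chain acyl-CoA synthetases and fatty acid uptake proteins. They do not complete these families, since *Acsbg2*, *Slc27a2*, *Slc27a5* and *Slc27a6* were placed in a list of other acyl-CoA synthetases.

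Long-chain acyl-CoA synthetases use ATP to activate a free fatty acid to its acyl-CoA, which also traps it inside the cell. The bubblegum family, to which *Acsbg1* belongs, and the ACSL family carry out this reaction on different membranes, and the SLC27 proteins couple it to uptake. CD36 binds and takes up long-chain fatty acids at the cell surface. PPARα is a fatty acid-activated nuclear receptor, and *Acsl1*, *Slc27a1* and *Cd36* are among the genes known to respond to it in liver and other tissues. In the lung, alveolar type 2 (AT2) cells use acyl-CoA to make the phospholipids of surfactant.

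The data comprised RNA sequencing of 12 tumors from 9 mice, 3 tumors in each of 4 groups, all on a C57BL/6 background. KP mice carried K-ras LSL-G12D/WT and p53 Fl/Fl alleles, KPG1 mice carried Glut1 Fl/Fl (*Slc2a1*, the gene of the glucose transporter Glut1) in addition, and mice of every group carried CCSP-rtTA, a transactivator driven by a club cell promoter. Each mouse had received 6000 viral units of the same lentivirus, with a constitutive Cre and with PPARαΔ13, a mutant receptor that acts against normal PPARα, under a doxycycline-responsive promoter. The KP-PPARαΔ13 and KPG1-PPARαΔ13 groups were given food with 625 mg/kg doxycycline for 15 days and the KP and KPG1 groups regular food, so the effects of the diet and of the transgene cannot be told apart. Tumors were taken 26 weeks after initiation, and immune cells were depleted with anti-CD45 beads before RNA extraction. The ages of the mice are not given in the sources used here. By the numbers in the labels, KP tumors 1 and 2, KPG1 tumors 1 and 2 and KPG1-PPARαΔ13 tumors 1 and 3 each came from a single mouse, so that p-values measure the spread between tumors and not only between animals. Sex was unevenly spread, since on regular diet KP tumors were all female (3) and KPG1 tumors all male (3), whereas on doxycycline females gave 1 KP-PPARαΔ13 and 2 KPG1-PPARαΔ13 tumors. Sex thus changed with the diet in opposite directions in KP and KPG1. Differences of the doxycycline effect between genotypes therefore cannot be fully told apart from sex. Neither can doxycycline effects within a genotype or differences between genotypes, since the groups compared there also differed in sex.

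Total counts were 25263794 to 32654223 per tumor. The defining genes of AT2 cells were high throughout, with *Sftpc* at 5540 to 29952 CPM (read counts scaled to the library size) across the tumors, and the summed level of 7 AT2 markers was 23485 to 59648 CPM on doxycycline and 27254 to 76895 CPM on regular diet. The medians of this sum were 30147 and 53513 CPM, and all 7 markers had a negative log2 fold change with doxycycline. Of these, *Lamp3* (-1.11), *Abca3* (-0.74), *Slc34a2* (-0.95) and *Sftpc* (-0.87) had an unadjusted p under 0.05 by edgeR, where 10.1% of all genes did. None of the 7 passed after adjustment (edgeR adjusted p = 0.356 for *Lamp3*). The part of this difference in the results was not tested. Some immune cell RNA remained after depletion, with *Ptprc*, the gene of CD45, at 1.88 to 31.5 CPM, the macrophage gene *Cd68* at 13 to 23.7 CPM and *Itgam* at 3.2 to 12.9 CPM, while the T cell gene *Cd3e* was at most 0.241 CPM. The labels were checked on both targeted genes. Mean *Slc2a1* was 44.9 CPM (SD 11.5, n = 3) in KP tumors but also 44.7 CPM (SD 17.4, n = 3) in those of KPG1, so the gene-level count, which does not resolve the floxed part, did not separate the genotypes on regular diet. On doxycycline it did, with 153, 115 and 108 CPM in KP-PPARαΔ13 tumors 1 to 3 and 23.7, 53.2 and 54.5 CPM in KPG1-PPARαΔ13 tumors 1 to 3, so that *Slc2a1* was also higher in every KP-PPARαΔ13 tumor than in every KP tumor. *Ppara* was at 7.24 to 15.7 CPM in the 6 tumors on regular diet. On doxycycline it reached 64.6 and 246 CPM in KP-PPARαΔ13 tumors 2 and 3, but was 2.71 CPM in the library labelled KP-PPARαΔ13 tumor 1, and it was 8.9, 19.2 and 17.7 CPM in KPG1-PPARαΔ13 tumors 1, 2 and 3. Thus 2 of the 6 doxycycline libraries were within or below the control range of *Ppara*, and fold changes with doxycycline are also given without the library that was below it.

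*Acsbg1* lies on the minus strand of chr9:54604877-54661870 (mm10, with gene models of GENCODE M21), and its exons share no bases with another gene. The start regions of *Acsbg1* and *Cd36* are shown because *Acsbg1* carried the largest difference among these genes and because the *Cd36* window is the sole one of the 10 genes with a match to the letters of the PPAR motif. Both are RefSeq promoter windows (GRCm38.p6) of 250 bases before to 50 bases after an annotated start, written 5′ to 3′ on the minus strand, for *Acsbg1* chr9:54661836-54662135 and for *Cd36* chr5:17835847-17836146, which lies inside the GENCODE span of *Cd36* (chr5:17781690-17888801). Capitals mark motif matches.
*Acsbg1*: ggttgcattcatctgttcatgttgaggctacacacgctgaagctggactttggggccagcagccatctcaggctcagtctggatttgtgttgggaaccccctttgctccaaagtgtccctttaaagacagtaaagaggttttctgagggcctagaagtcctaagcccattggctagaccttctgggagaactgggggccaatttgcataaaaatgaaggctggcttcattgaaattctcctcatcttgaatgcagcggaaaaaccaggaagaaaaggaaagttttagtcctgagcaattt
*Cd36*: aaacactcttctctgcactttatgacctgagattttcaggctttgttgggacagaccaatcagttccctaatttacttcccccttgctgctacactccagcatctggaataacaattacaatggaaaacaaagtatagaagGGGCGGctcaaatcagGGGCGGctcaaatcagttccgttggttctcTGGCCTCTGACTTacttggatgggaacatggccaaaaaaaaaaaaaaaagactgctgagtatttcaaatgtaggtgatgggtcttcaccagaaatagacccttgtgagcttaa
The motifs searched on both strands were AGGTCANAGGTCA, the direct repeat with a spacer of 1 base (DR1) that PPARα binds with its partner RXR, exactly or with up to 1 mismatch in each repeat unit, the TATA box TATAAA and the GC box GGGCGG. The *Acsbg1* window held none of them. The *Cd36* window held 1 inexact DR1 on the opposite strand, whose first base in the window was 63 bases before the start (-63), and 2 GC boxes at -109 and -93. Among 27025 genes with a window, 0.0444% held an exact DR1, 2.37% a DR1 with up to 1 mismatch in each repeat unit, 14.2% a TATAAA and 35.9% a GGGCGG. The *Acsbg1* window was poor in CpG, with 2 CpG dinucleotides and 47% G or C, against medians of 7 and 52.7% over all genes. At or below 2 CpG were 23.8% of genes. The 15 windows of the 10 genes held from 1 CpG, in an *Acsl6* window, to 36, in another *Acsl6* window, with 3 for *Cd36*, 9 for *Acsl5*, 33 for *Acsl3* and *Acsl4* and 30 and 4 for the windows of *Acsl1*. A match in such a window is a description and shows no binding, and the absence of a match says nothing of sites elsewhere.

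*Acsbg1* was low in all tumors on regular diet and higher in all tumors on doxycycline. Its level was 0.719, 1 and 1.74 CPM in KP tumors 1 to 3, from counts of 21, 33 and 50 reads, and 0.36, 0.998 and 0.529 CPM in KPG1 tumors 1 to 3, from 9, 29 and 16 reads. It was 13.5, 21.9 and 25.9 CPM in KP-PPARαΔ13 tumors 1 to 3 (395, 679 and 773 reads) and 6.55, 19.8 and 8.1 CPM in KPG1-PPARαΔ13 tumors 1 to 3 (192, 619 and 263 reads). No doxycycline tumor overlapped with a control tumor, and the lowest level on doxycycline was 3.76 times the highest control level. Over all genes tested, 0.266% (44 of 16527) were higher in every doxycycline tumor than in every control tumor and 0.224% (37) were lower in the same sense, counts into which *Acsbg1* was selected and from which nothing is read. Since these are bulk samples, more cells of a type that expresses *Acsbg1* and more *Acsbg1* RNA per cell cannot be told apart.

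**Figure D1:**
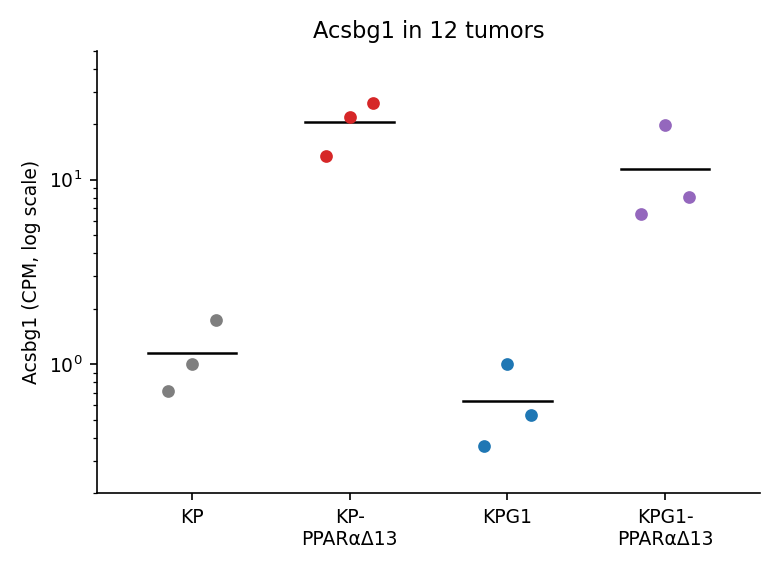
*Acsbg1* level (CPM, log axis) in each of the 12 tumors by group. Points are single tumors in the order of their replicate numbers, and horizontal lines are group means. The 6 doxycycline tumors sit between 6.55 and 25.9 CPM and the 6 control tumors between 0.36 and 1.74 CPM.

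By mean, the groups were ordered KP-PPARαΔ13 (20.4 ± 6.31 CPM), KPG1-PPARαΔ13 (11.5 ± 7.26), KP (1.15 ± 0.527) and KPG1 (0.629 ± 0.331; SD, n = 3 each). Within a diet, the groups next to each other in this order overlapped. The ratio of means was 17.7 in KP and 18.3 in KPG1, and the fitted log2 fold change of *Acsbg1* with doxycycline was 4.16 over both genotypes, 4.14 in KP and 4.18 in KPG1. Without KPG1-PPARαΔ13 tumor 2, the highest of its group, the value in KPG1 was 3.53. The difference between genotypes in the size of this effect was not used to choose the gene and was tested. It was 0.03 on the log2 scale (95% interval -1.5 to 1.56, edgeR adjusted p = 0.992), so differences of up to about the size of the interval were not detectable with 3 tumors per group.

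*Acsbg1* was also compared between genotypes, which the selection did not use. It had a log2 fold change of -0.85 in KPG1 against KP over both diets (95% interval -1.71 to 0.02), and this did not pass the threshold (edgeR unadjusted p = 0.0439, adjusted p = 0.976). The interval and the p-value use different degrees of freedom. The corresponding values were -0.86 on regular diet (adjusted p = 0.813) and -0.83 on doxycycline (adjusted p = 0.604, both by edgeR). On regular diet the sex of the mice differed together with the genotype, and the 2 cannot be told apart there. Sex was also uneven between the genotypes on doxycycline. The values on doxycycline and over both diets therefore cannot be fully told apart from sex. Among doxycycline tumors *Acsbg1* was 6.55, 8.1 and 21.9 CPM in those from females and 13.5, 19.8 and 25.9 CPM in those from males, ranges that overlap.

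The levels of *Acsbg1* and *Ppara* are set side by side as a description. In the library labelled KP-PPARαΔ13 tumor 1, where *Ppara* was the lowest of all tumors (2.71 CPM), *Acsbg1* was 13.5 CPM. KPG1 tumor 3, with more *Ppara* (15.3 CPM), had 0.529 CPM of *Acsbg1*. Between KP-PPARαΔ13 tumors 2 and 3 *Ppara* went from 64.6 to 246 CPM and *Acsbg1* from 21.9 to 25.9 CPM. In KPG1-PPARαΔ13 tumors 1, 3 and 2 *Ppara* was 8.9, 17.7 and 19.2 CPM and *Acsbg1* 6.55, 8.1 and 19.8 CPM. Apart from KP-PPARαΔ13 tumor 1, the doxycycline tumors thus had the same order for both genes. A relation between the levels of these genes was not tested. Without KP-PPARαΔ13 tumor 1, the log2 fold change of *Acsbg1* with doxycycline was 4.27 over both genotypes and 4.37 in KP, and the difference of its effect between genotypes was -0.20 (edgeR adjusted p = 0.942).

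**Figure D2:**
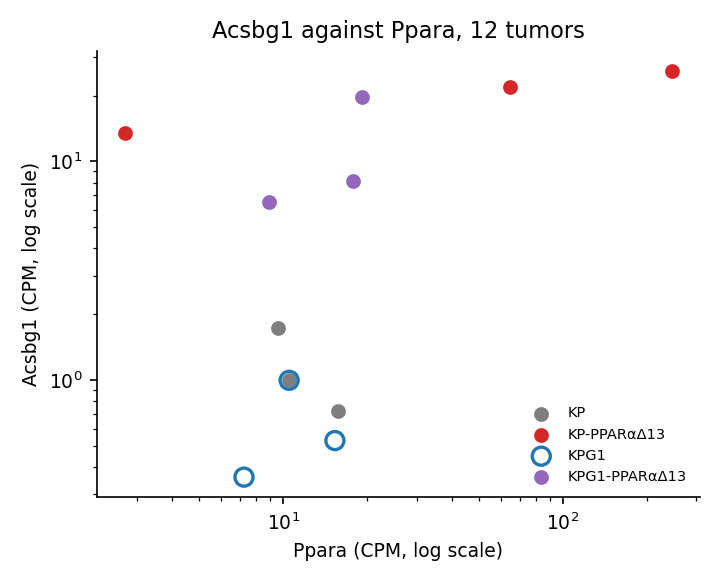
*Acsbg1* against *Ppara* (both in CPM, log axes) in the 12 tumors, colored by group, with KPG1 as open circles. Doxycycline tumors lie above the control tumors in *Acsbg1*. *Ppara* spans 2.71 to 246 CPM in doxycycline tumors and 7.24 to 15.7 CPM in control tumors. Of the doxycycline tumors, only KPG1-PPARαΔ13 tumor 1 (8.9 CPM) falls within that control range.

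Markers of other cell types were measured in the same libraries. The summed level of 6 striated and cardiac muscle markers also separated the diets, at 6.88 to 23.1 CPM in doxycycline tumors and 2.21 to 3.89 CPM in control tumors. Of these, *Ckm* and *Actn2* were under 1 CPM in each tumor, while *Tnnt2*, a troponin subunit of heart muscle, was at 2.05 to 18.3 CPM on doxycycline and 0.397 to 2.27 CPM on regular diet. In the same order, *Myh6* was at 0.569 to 10.3 and 0.62 to 1.78 CPM and *Acta1* at 0.256 to 1.84 and 0.308 to 0.905 CPM. *Myl7* was at 0.0616 to 2.42 and 0 to 0.138 CPM. Taken singly, each of the 6 overlapped between diets. Some erythroid markers moved with the diet too, while the summed level of the 6 overlapped, at 731 to 1421 CPM on doxycycline and 319 to 962 CPM on regular diet. *Hba-a2* (alpha globin) was 29.1 to 122 CPM on doxycycline and 0.103 to 26.2 CPM on regular diet (log2 fold change 4.62, edgeR adjusted p = 0.00429), although its reads can be split with the near-identical *Hba-a1* (1.05, adjusted p = 0.456 by edgeR). The heme synthesis gene *Alas2* had 1.06, and the beta globin genes *Hbb-bs* and *Hbb-bt* had 1.24 and -0.43, none past the threshold. By genotype, *Hba-a2* had a log2 fold change with doxycycline of 1.52 in KP (edgeR adjusted p = 0.37) and 7.72 in KPG1 (edgeR adjusted p = 0.0105). On regular diet *Hba-a2* also differed between genotypes, at -5.99 in KPG1 against KP (edgeR adjusted p = 0.0248). The part of muscle and erythroid markers in the *Acsbg1* difference was not tested. Glial markers (5 genes, 3.22 to 7.7 against 3.18 to 9.19 CPM), adipocyte markers (4 genes, 0.754 to 4.47 against 0.661 to 3.77 CPM) and regulatory T cell markers (4 genes, 3.95 to 33.5 against 8.46 to 35 CPM) overlapped between diets, and *Foxp3*, *Il2ra*, *Ctla4*, *Adipoq*, *Lep*, *Plin1*, *Sox10* and *S100b* were under 1 CPM in each tumor. The regulatory T cell sum was thus mostly *Ikzf2*, at 3.72 to 33.3 CPM on doxycycline and 8.29 to 34.2 CPM on regular diet. The remaining adipocyte marker was *Cidec*, at 0.617 to 4.37 and 0.48 to 3.47 CPM in the same order.

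Per kilobase of exon, with all annotated exons of a gene merged, *Acsbg1* remained a minor synthetase. Its level was 1.82 to 7.18 CPM per kb of exon in doxycycline tumors, where *Acsl1* was at 2.92 to 6.43 CPM per kb, and *Acsbg1* was above *Acsl1* in 2 of the 6 doxycycline tumors and in 0 of the 6 control tumors. The merged exons total 3604 bases for *Acsbg1* and 10483 bases for *Acsl1*, so this comparison depends on the lengths used. Before division by length, *Acsl1* was the higher in every doxycycline tumor, at 30.6 to 67.4 CPM against 6.55 to 25.9 CPM. Of the summed level per kb of the 6 synthetase genes, *Acsbg1* made up 0.797% to 3.22% on doxycycline and 0.0396% to 0.154% on regular diet. *Acsl4* (36% to 63.5% over the 12 tumors) and *Acsl5* (19.8% to 52.2%) together made up most of the sum. *Acsl4* was the highest in 7 tumors and *Acsl5* in 5. The sum itself overlapped between diets, at 182 to 306 CPM per kb on doxycycline and 131 to 370 CPM per kb on regular diet.

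**Figure D3:**
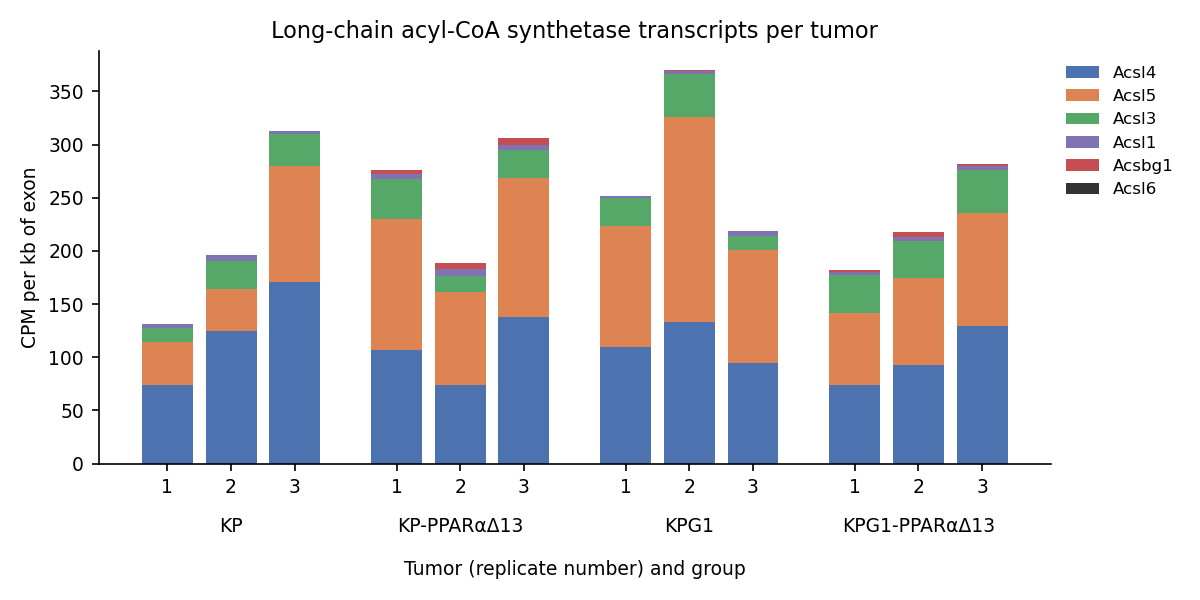
Level per kilobase of exon (CPM per kb) of the 6 long-chain acyl-CoA synthetase genes, stacked for each of the 12 tumors. *Acsl4* and *Acsl5* fill most of each bar, and *Acsbg1* is visible as a thin band in the doxycycline tumors, where its share is 0.797% to 3.22%.

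With *Acsbg1* set aside, 0 of the 9 other genes passed an adjusted p of 0.05 over both genotypes by edgeR, beside 0.0182% (3 of 16527) of all genes. At an unadjusted p under 0.05 there were 2, *Slc27a1* and *Cd36*, where 10.1% of all genes passed. DESeq2, which called 288 genes in all, called 1 of the 9 (*Slc27a1*) and limma voom 0, each with the same 2 at the unadjusted level. Without KP-PPARαΔ13 tumor 1 the log2 fold changes of the 9 were between -0.88 (*Slc27a1*, edgeR adjusted p = 0.307) and 0.29 (*Acsl6*). The median log2 fold change of the 9 was -0.12, against 0.01 over all genes tested.

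*Acsl1*, the main synthetase of heart, liver and fat and a known PPARα target, was 34.6, 55 and 27.5 CPM in KP tumors 1 to 3 and 40.2, 67.4 and 42.7 CPM in KP-PPARαΔ13. It was 17.5, 37 and 46.9 CPM in KPG1 and 30.6, 34.1 and 33 CPM in KPG1-PPARαΔ13. The diets overlapped in both genotypes, and the log2 fold change over both was 0.15 (95% interval -0.44 to 0.74, edgeR adjusted p = 0.89). *Acsl3*, an enzyme of the endoplasmic reticulum and of lipid droplets, was 57.9 to 174 CPM on regular diet and 67.6 to 176 CPM on doxycycline (log2 fold change 0.32, edgeR adjusted p = 0.775). It was least variable in KPG1-PPARαΔ13, at 153, 153 and 176 CPM. *Acsl4*, which prefers arachidonic acid and similar polyunsaturated fatty acids, was 401 to 927 CPM on regular diet and 398 to 744 CPM on doxycycline (log2 fold change -0.20, 95% interval -0.76 to 0.35, edgeR adjusted p = 0.834). *Acsl4* had the narrowest spread of the 10 genes, with a highest-to-lowest ratio of 2.33 over the 12 tumors, against 71.9 for *Acsbg1*.

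*Acsl5*, a synthetase of mitochondria and the endoplasmic reticulum, had log2 fold changes of opposite sign in the 2 genotypes. It was 194, 189 and 532 CPM in KP tumors 1 to 3 and 597, 425 and 635 CPM in KP-PPARαΔ13, a log2 fold change of 0.86. In KPG1 it was 549, 940 and 519 CPM and in KPG1-PPARαΔ13 330, 397 and 519 CPM, a log2 fold change of -0.69. In KP tumor 3 the level was within the KP-PPARαΔ13 range, and the 2 lowest values were tumors of the same mouse. The difference between these effects was -1.55 (95% interval -2.87 to -0.22, unadjusted p = 0.0206) and did not pass after adjustment over all genes (edgeR adjusted p = 0.375). Sex changed with the diet in opposite directions in the 2 genotypes, so this difference cannot be fully told apart from sex. Averaged over both genotypes, the log2 fold change was 0.08 (edgeR adjusted p = 0.946). *Acsl6*, a synthetase of brain and red blood cells, was at 0.138 to 0.871 CPM, and its log2 fold change with doxycycline was 0.15 (edgeR adjusted p = 0.928).

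**Figure D4:**
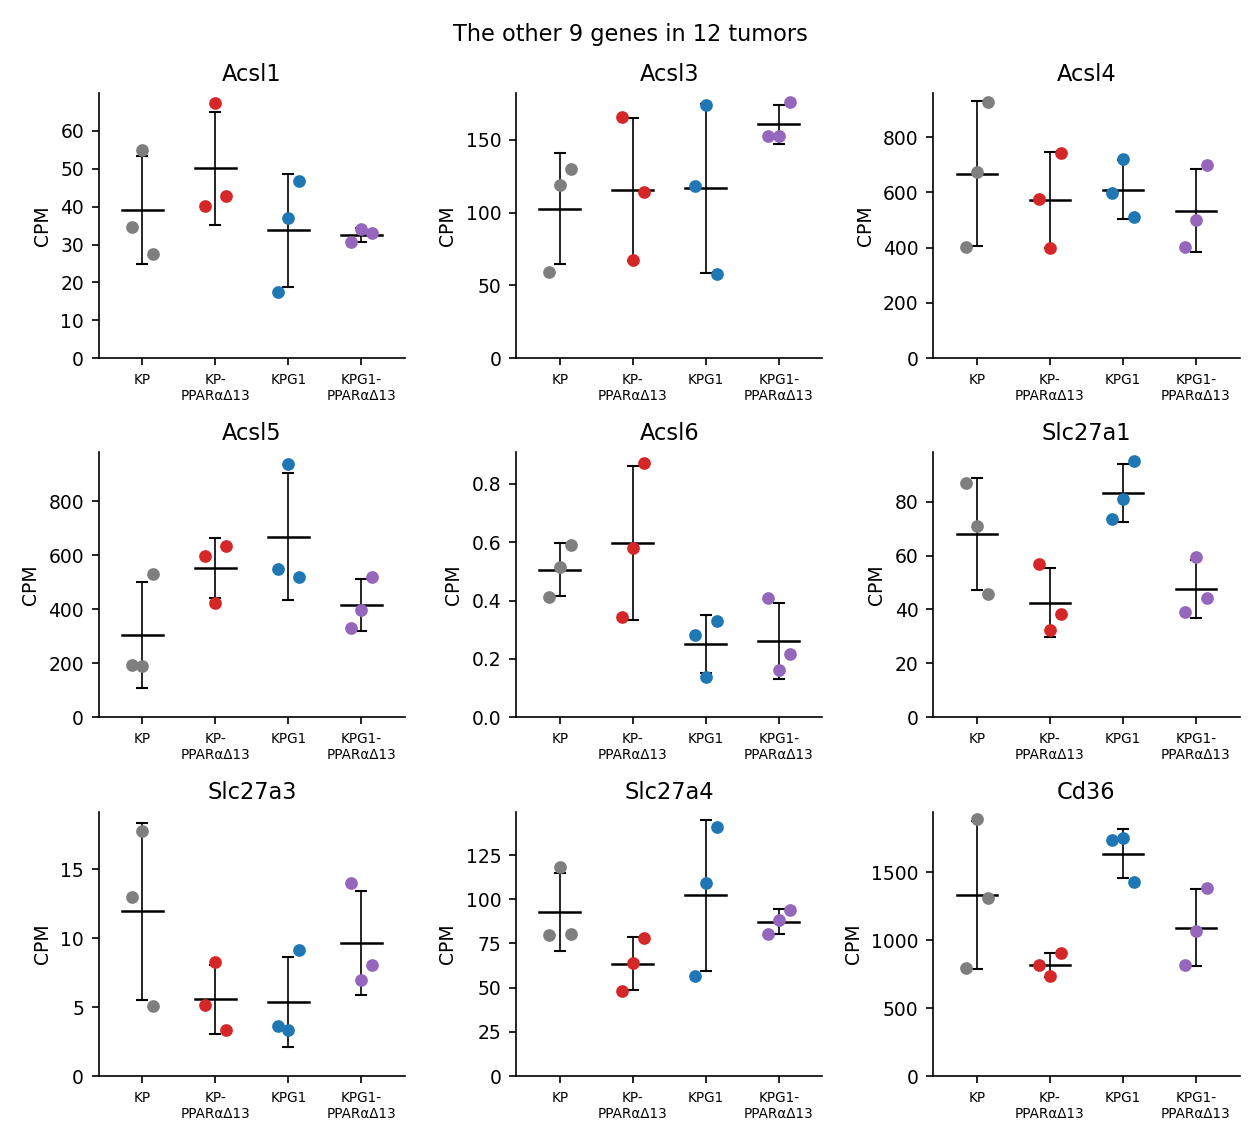
Levels (CPM, linear axes from 0) of the other 9 genes in the 12 tumors. Points are tumors, horizontal lines group means and bars 1 SD (n = 3). No panel shows doxycycline tumors that all lie apart from all control tumors.

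Among the uptake proteins, *Slc27a1* had the lowest unadjusted p. *Slc27a1*, a plasma membrane transporter with synthetase activity best known from muscle and fat, was 87.1, 70.9 and 45.7 CPM in KP and 57, 32.3 and 38.2 CPM in KP-PPARαΔ13. It was 73.6, 80.9 and 95 CPM in KPG1 and 38.9, 59.5 and 44.3 CPM in KPG1-PPARαΔ13. KP tumor 3 lay below 2 doxycycline tumors. Of the 36 pairs of a doxycycline and a control tumor, the doxycycline tumor was the higher in 2. The log2 fold change was -0.74 ± 0.20 (SE) over both genotypes, -0.68 in KP and -0.81 in KPG1. The first did not pass with edgeR (unadjusted p = 0.00344, adjusted p = 0.295) and passed with DESeq2 (adjusted p = 0.0494). *Slc27a4*, the transporter of gut and skin, was 56.7 to 141 CPM on regular diet and 48.2 to 93.8 CPM on doxycycline (log2 fold change -0.39, edgeR adjusted p = 0.586). *Slc27a4* supplied 47.5% to 69.3% of the level per kb of the 3 *Slc27a* genes across the tumors.

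*Slc27a3*, a family member with synthetase activity, ran opposite to *Acsl5*. It was 13, 17.8 and 5.08 CPM in KP tumors 1 to 3 and 5.14, 8.26 and 3.32 CPM in KP-PPARαΔ13. KPG1 tumors had 3.6, 3.34 and 9.15 CPM and KPG1-PPARαΔ13 tumors 14, 6.98 and 8.07 CPM. Its log2 fold change was -1.10 in KP and 0.85 in KPG1, groups that overlapped in both cases. The difference was 1.95 (95% interval 0.14 to 3.77) and did not pass (unadjusted p = 0.03, edgeR adjusted p = 0.395). As for *Acsl5*, this difference cannot be fully told apart from sex. Over the 12 tumors, the log2 levels of *Slc27a3* and *Acsl5* had a Pearson r of -0.87, and of -0.83 after the group means were subtracted, given as a description of tumors that share mice. Within groups, *Acsl4* and *Acsl5* ran together (r = 0.81), as did *Acsl1* and *Slc27a4* (r = 0.84) and *Acsl4* and *Cd36* (r = 0.75).

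*Cd36* was the most abundant of the 10 genes, at 733 to 1889 CPM or 204 to 526 CPM per kb. It was 798, 1889 and 1307 CPM in KP tumors 1 to 3 and 816, 733 and 908 CPM in KP-PPARαΔ13. In KPG1 it was 1737, 1750 and 1426 CPM and in KPG1-PPARαΔ13 819, 1069 and 1385 CPM. KP tumor 1 was lower than its companion from the same mouse, KP tumor 2, by a factor of 2.37. KP tumors 1 and 3 both lay within the doxycycline range of 733 to 1385 CPM. The log2 fold change with doxycycline was -0.64 (95% interval -1.15 to -0.14, unadjusted p = 0.013) over both genotypes and did not pass (edgeR adjusted p = 0.374), with -0.70 in KP and -0.59 in KPG1. *Cd36* is also made by endothelial cells, macrophages and adipocytes. Summed over 6 endothelial markers the tumors ranged from 132 to 718 CPM on doxycycline and 165 to 446 CPM on regular diet. Their part in the values of *Cd36* was not tested.

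Within KP, 0 of the 9 other genes passed with doxycycline by edgeR, DESeq2 or limma voom, beside 0.00605% of all genes by edgeR. At an unadjusted p under 0.05 edgeR had 2 (*Slc27a1* and *Cd36*), where 11.4% of all genes passed, DESeq2 3 and limma voom 2. Within KPG1, 0 of the 9 passed by these tools, beside 0.00605% of all genes, and 1 (*Slc27a1*) had an unadjusted p under 0.05 by each of them, where 10.8% of all genes did by edgeR.

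The genotype comparisons addressed whether the Glut1 Fl/Fl genotype, as labelled, went with other levels of these genes. Over both diets 0 of the 10 passed with edgeR, DESeq2 or limma voom, beside 0.0484% of all genes (8), and 2 had an unadjusted p under 0.05 by edgeR, *Acsbg1* and *Acsl6*, where 4.53% of all genes did (2 by DESeq2 and 1 by limma voom). *Acsl6* had 0.411, 0.515 and 0.592 CPM in KP tumors and 0.343, 0.581 and 0.871 CPM in those of KP-PPARαΔ13. KPG1 tumors had 0.28, 0.138 and 0.33 CPM and KPG1-PPARαΔ13 tumors 0.409, 0.16 and 0.215 CPM, and the genotypes overlapped (log2 fold change -1.10, 95% interval -1.99 to -0.21, unadjusted p = 0.0154, edgeR adjusted p = 0.976). These levels are close to the filter on low counts, and the difference cannot be fully told apart from sex. Each of the other genes had a log2 fold change between -0.41 (*Acsl1*) and 0.36 (*Acsl5* and *Cd36*). No gene of the 10 separated all KPG1 from all KP tumors, in either direction, beside 0.0968% of all genes that were higher and 0.0908% that were lower in this way.

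On regular diet 0 of the 10 passed by the 3 tools, beside 0.0363% of all genes with edgeR. *Acsl5* (log2 fold change 1.13, 95% interval 0.19 to 2.08, edgeR adjusted p = 0.785) was the 1 gene with an unadjusted p under 0.05 by edgeR, where 6.23% of all genes passed (2 of the 10 by DESeq2, 1 by limma voom). On doxycycline 0 of the 10 passed by the 3 tools, beside 0.0303% of all genes, and 0 had an unadjusted p under 0.05 by edgeR or DESeq2 and 1 by limma voom (*Acsbg1*), where 9.69% of all genes did by edgeR. For the difference of the doxycycline effect between genotypes, 0 of the 10 passed, beside 0% of all genes with edgeR, and *Acsl5* and *Slc27a3* had an unadjusted p under 0.05 by all 3 tools, where 11.8% of all genes did by edgeR.

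**Figure D5:**
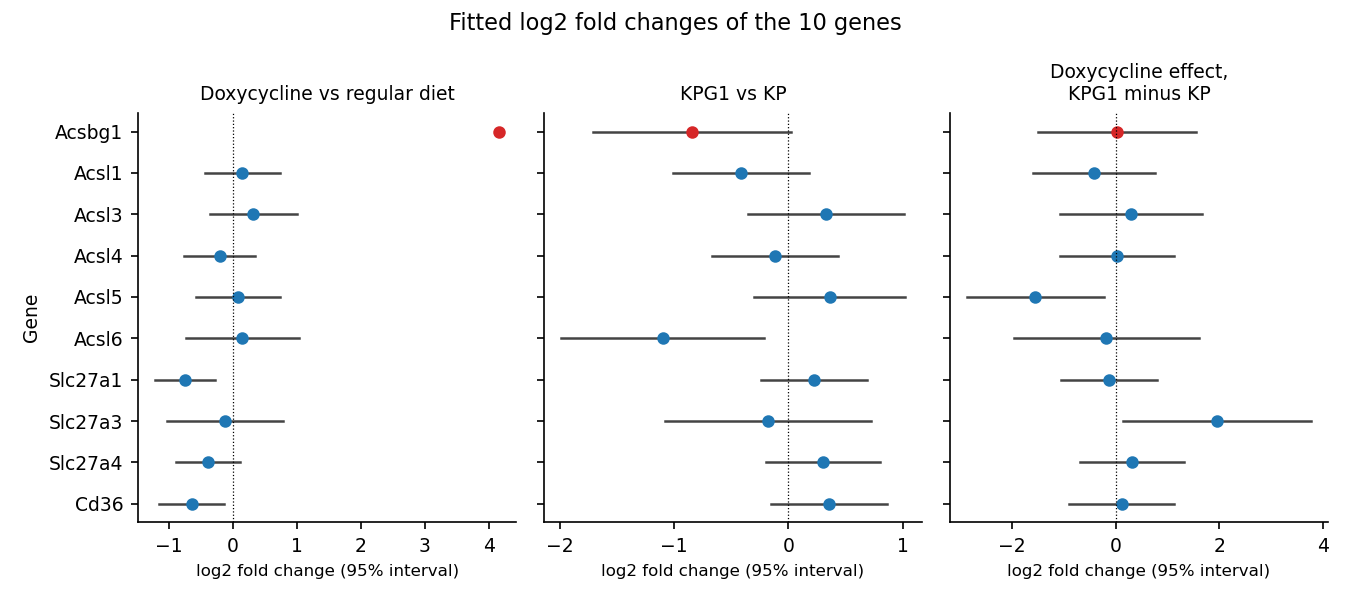
Fitted log2 fold changes (points) with 95% intervals (lines) of the 10 genes for doxycycline against regular diet, for KPG1 against KP, and for the doxycycline effect in KPG1 minus that in KP. *Acsbg1* (red) is at 4.16 in the first panel, where it was selected and has no interval, and at 0.03 in the third.

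The steps around fatty acid activation were described with 5 lists of further genes. Of 71 listed genes, 70 were in the table and 54 passed the filter on low counts. By edgeR 0 of the 54 passed in any of the 7 comparisons, beside 0% to 0.0484% of all genes. With doxycycline over both genotypes 3 had an unadjusted p under 0.05 by edgeR, where 10.1% of all genes did (0 passed and 3 were unadjusted by DESeq2, 0 and 2 by limma voom), and 24 of the 54 had a positive log2 fold change.

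Among 8 tested acetyl-, acetoacetyl- and other acyl-CoA synthetases, 1 had a positive log2 fold change with doxycycline. *Acss2*, which activates acetate in cytosol and nucleus, had the lowest value (-1.32, edgeR adjusted p = 0.455), with medians of 15.2 CPM on doxycycline and 28.3 CPM on regular diet, followed by *Slc27a2*, a very long-chain synthetase at 0.0343 to 3.69 CPM (-0.34). *Aacs*, which activates acetoacetate, had 0.25, and *Acss3*, a mitochondrial propionyl-CoA synthetase, -0.05. Of 11 tested fatty acid and acyl-CoA binding proteins 6 had a positive value, from *Fabp12* (-0.94) and *Acbd7* (-0.52) to *Fabp2* (0.82) and *Fabp1* (0.95). *Fabp1*, the liver fatty acid-binding protein and a PPARα target there, was 10.6, 1.28 and 21.2 CPM in KPG1-PPARαΔ13 and at most 2.94 CPM elsewhere. The 2 high values, of tumors 1 and 3, came from a single mouse, and the third tumor, from another mouse, was within the range of the other groups. DESeq2, but not edgeR, called *Fabp1* higher with doxycycline in KPG1, in KPG1-PPARαΔ13 against KP-PPARαΔ13 and in the difference between genotypes. In these comparisons DESeq2 called 211, 155 and 286 genes in all, against 1, 5 and 0 by edgeR. For the difference between genotypes the edgeR log2 value of *Fabp1* was 6.11 (adjusted p = 0.335).

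Of 12 tested acyl-CoA thioesterases, which hydrolyze acyl-CoA back to the free acid, 7 had a positive log2 fold change over both genotypes. Within genotypes these were 3 of 12 in KP (median -0.33, against -0.01 over all genes) and 11 of 12 in KPG1 (median 0.47, against 0.02), a difference between genotypes that was not tested for the list. It also cannot be fully told apart from sex. *Acot9*, a mitochondrial enzyme, had medians of 50.3 CPM on doxycycline and 27.6 CPM on regular diet (0.81, unadjusted p = 0.0111, edgeR adjusted p = 0.359), and *Acot3* had 1.24 at 0 to 3.05 CPM on doxycycline. At the other end were *Acot6* (-0.90) and *Acot11* (-0.37). The 7 genes of the carnitine shuttle, which carries acyl groups into mitochondria, were all tested, and 2 were positive, from *Cpt1c* (-0.49) and *Cpt1a* (-0.15), the rate-limiting PPARα target in liver, to *Crot* (0.08) and *Cpt1b* (0.39). Of 16 tested genes that transfer acyl groups to lipids 8 were positive. *Soat1*, which esterifies cholesterol and not glycerol, was at 188 to 489 CPM on doxycycline and 423 to 710 CPM on regular diet (-0.72, unadjusted p = 0.0101, edgeR adjusted p = 0.356). *Lpcat1*, which remodels surfactant phosphatidylcholine, had -0.38 (edgeR adjusted p = 0.548), *Agpat5* 0.54 and *Lpcat2* 0.77.

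Finally, the genes whose pattern over the 12 tumors was most like that of *Acsbg1* were listed by Pearson r of log2 CPM, among 14108 genes with a mean of at least 1 CPM. This is a description, since tumors share mice and most of the likeness is the difference between diets by which *Acsbg1* was chosen. The 6 highest were *Map4* (r = 0.89), *Mmp10* (0.89), *Ano7* (0.88), *Gm12603* (0.87), *Ybx1* (0.87) and *Onecut2* (0.86). After subtraction of the group means their r was 0.09, 0.10, 0.67, 0.39, 0.70 and 0.67, and 0 of the 6 stayed among the 6 highest, whereas 2 did by Spearman's rho. *Map4*, which codes for a microtubule-associated protein, was 91.4 to 136 CPM in doxycycline tumors and 51.9 to 84.3 CPM in control tumors. *Onecut2*, a transcription factor of liver and neurons, ranged from 2.97 to 132 CPM on doxycycline and from 0.274 to 6.88 CPM on regular diet. The 3 lowest were *Sema4c* (r = -0.91), *Mthfd1* (-0.90) and *Sntb1* (-0.88), of which *Mthfd1*, an enzyme of folate metabolism, was 128 to 194 CPM on doxycycline and 234 to 314 CPM on regular diet.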

How the data were processed

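Single-end reads from poly(A) RNA libraries (TruSeq stranded mRNA kit) of 12 tumors were trimmed with Cutadapt, aligned to mm10 with HISAT2 and counted with featureCounts 1.4.4, per the labels. The authors deposited the number of reads per gene, a raw count, for each tumor and in a combined table, and the 12 tumor files equal it. The annotation used for counting is not given in the sources used here. Deposited log2 values were not used, and columns matching no sample numbered 0.

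From the counts, edgeR 4.0.16 (R 4.3.3; TMM, filterByExpr by group, glmQLFit, glmQLFTest) was fitted to 16527 genes with the 12 tumors in one model, 8 residual degrees of freedom and a biological coefficient of variation of 0.44. Benjamini-Hochberg adjustment covered all genes tested, with a threshold of 0.05. CPM use TMM library sizes. Levels per kb use the total length of the merged annotated exons of each gene in GENCODE M21, which held 96.4% of the identifiers. This length can exceed that of a single transcript. Total counts of 25263794 to 32654223 set the precision of low genes, while for other genes the spread between tumors does. Scripts were tested on simulated data.

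The 10 genes and the lists were chosen with earlier results of these data known. *Acsbg1* was left out of counts in the doxycycline comparisons. Named genes are the 10, the 2 highest and 2 lowest of each list with doxycycline, any list gene past the threshold, the genes most and least like *Acsbg1*, and *Slc2a1* and *Ppara*. Marker genes of other cell types, and *Fabp1* beyond its place in that rule, were described after their values were seen. *Gpat3*, *Gpat4* and *Adgre1* were matched by gene identifier. The exons of *Acsl3* share 244 bases with *Utp14b* on the same strand. Promoter sequences are from RefSeq (GRCm38.p6), with windows for all 10 genes.

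Alternatives were DESeq2 1.42.0, limma 3.58.1 voom, upper-quartile normalization, other filters on low counts, fits of the compared groups alone, an added term for sex, a block for the replicate number, sums over tumors from 1 mouse and fits without each tumor in turn. Marker results for some cell types are not reported here.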

Additional observations from a re-analysis of the deposited data

Results flagged for a closer look

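*Acss3*, a mitochondrial propionyl-CoA synthetase, was the 1 of 64 genes examined in which all doxycycline tumors lay below all control tumors in KP and above them in KPG1, a pattern shown by 0.605% (100) of the 16527 genes tested. The search took opposite directions either way round, which 0.986% (163) of the genes tested showed. It was 13.8, 23.3 and 17.9 CPM in KP, and in KP-PPARαΔ13 it was 9.91, 13.7 and 2.88 CPM. KPG1 tumors had 11.2, 9.98 and 16.7 CPM, and KPG1-PPARαΔ13 tumors 20.4, 26.3 and 26.3 CPM. In KP the separation rests on 13.7 against 13.8 CPM. The difference of the doxycycline effect was 2.0 on the log2 scale (95% interval 0.51 to 3.5) and did not pass the adjustment over all genes (edgeR adjusted p = 0.351). Sex changed with the diet in opposite directions in KP and KPG1, so this difference cannot be fully told apart from sex.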

How the results depend on the processing

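Counts of the 10 genes past the threshold (9 where *Acsbg1* was set aside) were 0 in 143 of 144 alternatives, and the exception was 1 (*Slc27a1*, adjusted p = 0.0494) by DESeq2 with doxycycline over both genotypes, whereas the adjusted p of *Slc27a1* there ranged up to 0.587 elsewhere. DESeq2 called more genes than edgeR in each comparison, 288 against 3 with doxycycline over both genotypes, 372 against 1 in KP, 211 against 1 in KPG1, 39 against 8 between genotypes over both diets, 60 against 6 on regular diet, 155 against 5 on doxycycline and 286 against 0 for the difference of effects, and the cause was not tested. The other alternatives gave 0 to 13 genes, the highest being without KP-PPARαΔ13 tumor 3. The log2 fold change of *Acsbg1* with doxycycline stayed between 3.84 and 4.40 over both genotypes. Of 820 refitted values 22 changed sign, all of them of values that did not pass in any fit, and the causes were not tested. With tumors of a shared mouse summed, *Acsl5* with doxycycline was -0.00374. With sex as a term, *Slc27a3* between genotypes was 0.114. By limma voom the difference of the doxycycline effect on *Acsbg1* was -0.089. Leaving out single tumors gave -0.00495 to 0.315 for *Acsl1*, -0.0431 to 0.42 for *Acsl5*, -0.0798 to 0.29 for *Acsl6* and -0.323 to 0.177 for *Slc27a3* with doxycycline over both genotypes, -0.248 to 0.0394 for *Acsl4* and -0.485 to 0.0237 for *Slc27a3* between genotypes, and -0.618 to 0.489 for the difference of effects on *Acsbg1*. With a mean of at least 20 CPM required, *Acsbg1*, *Acsl6* and *Slc27a3* were not tested.

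Same-numbered tumors did not deviate together (correlations of -0.19 to 0.127), so the replicate number was not taken to pair them. The replicate block left 0 of the genes past the threshold in each of the 7 comparisons, with *Slc27a1* at -0.74 (edgeR adjusted p = 0.392). Depth limits *Acsbg1* on regular diet, at 9 to 50 reads, and *Acsl6*.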
